A study of Mus musculus with 4 samples.

Results

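The 5 genes described here are the chemokines Ccl17, Ccl22 and Ccl1 and the chemokine receptors Ccr4 and Ccr8, out of 33696 features in the count matrices. They were listed by name, and each was measured in every leukocyte of 4 single-cell RNA-seq libraries, with the ligands followed in dendritic cells and macrophages and the receptors in T cells. The libraries came from subcutaneous KPC tumors, grown from a mouse pancreatic cancer line of the KRASLSL.G12D/+P53LSL.R172H/+Pdx-Cre model in syngeneic young adult male C57BL/6 mice. One group was left untreated. Another received the STING agonist ADU-S100, injected once into the tumor. The LTbR agonist group received an agonistic antibody to the lymphotoxin beta receptor (clone 4H8), given repeatedly into the peritoneum, and the combination group received both agents. Tumors of a group were pooled, and the live CD45+ cells sorted from the pool were run as 1 library per group. There is thus no replicate of any condition, no test between groups and no p-value. Every interval printed here is an exact 95% interval of counting error, and it holds neither the spread between mice, tumors or libraries nor the fact that the molecules of a chemokine sit in few cells.

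CCL17 and CCL22 are the ligands of CCR4, a receptor of regulatory, type 2 helper and skin-homing T cells and of IL-17-producing T cells. Mature dendritic cells and some macrophages are their known sources in tumors. CCL1 is a ligand of CCR8, a receptor found on regulatory T cells of tumors and on type 2 helper T cells, and CCL1 itself is made by activated T cells. In both pairs the receptor signals through inhibitory G proteins and guides the cell toward the ligand.

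The deposited matrices held 8730 cells and 62248447 unique molecular identifiers (UMIs, 1 per captured RNA molecule) in the untreated library, 15404 and 85855398 in the STING agonist library, 14634 and 73704334 in the LTbR agonist library and 16322 and 52109958 in the combination library. After the filters on cells, the median depth of the cells kept ran from 4615.5 UMIs in the untreated library down to 2200 in the combination library. Of these cells, 7359, 13223, 13024 and 14386 were leukocytes. Each pair of libraries shared 34 to 83 of the deposited cell barcodes, or 0.355 to 0.539% of the smaller library. Cell classes were named by marker genes. The mature dendritic cell (mature DC) class held Ccr7, its defining chemokine receptor, at 2301 to 3004 CPM (UMIs of a gene scaled to an equal total in each class and library) against 19.8 in all other leukocytes, the conventional type 2 dendritic cell (cDC2) class held Cd209a at 141 to 322 CPM against 5.61, and the T class held Cd3e at 528 to 677 CPM against 2.30. Clusters that received no name held 0.611, 1.32, 1.74 and 1.72% of the leukocytes of the untreated, STING agonist, LTbR agonist and combination libraries. Values below are in this order of libraries wherever 4 are given.

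In the genome (GRCm38.p6) Ccl22 lies at chr8:94745684-94751388 and Ccl17 at chr8:94809380-94812038, 57991 bases apart, with Cx3cl1 as the 1 protein-coding gene between them. Ccl1 lies at chr11:82176666-82179812, Ccr4 at chr9:114490316-114505476 and Ccr8 at chr9:120092133-120094906. The 250 bases before a RefSeq start site of each of the 3 ligand genes, which for Ccl17 lies inside the gene interval given above, are shown because the class and library differences described below were mostly those of the ligands. Capitals mark matches to 4 motifs searched on both strands, the STAT6 site TTCNNNNGAA, the GAS site of STAT factors TTCNNNGAA, the AP-1 site TGANTCA and the NF-kB site, searched by name.
Ccl17, chr8:94810203-94810452, + strand: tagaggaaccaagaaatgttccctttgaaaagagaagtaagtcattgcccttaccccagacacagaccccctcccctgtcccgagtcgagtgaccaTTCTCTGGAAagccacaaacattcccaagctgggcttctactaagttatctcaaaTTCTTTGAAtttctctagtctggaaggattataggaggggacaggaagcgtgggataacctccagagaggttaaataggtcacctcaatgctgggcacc
Ccl22, chr8:94745434-94745683, + strand: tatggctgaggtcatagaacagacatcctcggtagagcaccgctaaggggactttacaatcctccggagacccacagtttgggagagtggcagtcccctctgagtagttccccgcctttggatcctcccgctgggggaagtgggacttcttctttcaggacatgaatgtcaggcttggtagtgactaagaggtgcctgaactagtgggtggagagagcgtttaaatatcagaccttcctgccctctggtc
Ccl1, chr11:82179813-82180062, − strand: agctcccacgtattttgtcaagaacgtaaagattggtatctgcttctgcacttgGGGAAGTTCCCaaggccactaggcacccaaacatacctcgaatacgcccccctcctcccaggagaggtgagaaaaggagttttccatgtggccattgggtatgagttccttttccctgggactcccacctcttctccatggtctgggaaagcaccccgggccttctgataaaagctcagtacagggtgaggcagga
The Ccl17 window held 1 match to the STAT6 site, at −154 to −145 from the start site, and 1 to the GAS site, at −99 to −91. The Ccl22 window, on the same chromosome, held no match to any of the 4. The Ccl1 window held 2 overlapping NF-kB matches, at −196 to −187 and −195 to −186. Of the receptors, the Ccr4 window held an AP-1 match at −143 to −137 and the Ccr8 window none. Of 27025 promoter windows of this length, 5.86% held the STAT6 site, 7.18% the GAS site, 6.87% the AP-1 site and 7.01% the NF-kB site, so each match is a description of the window and not a site of binding.

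Over all leukocytes the 5 genes together split into 2 cellular compartments. The UMIs of Ccl17 and Ccl22 lay in dendritic cells and macrophages, and those of Ccl1, Ccr4 and Ccr8 in T cells. Ccl17 had 1870, 1203, 4306 and 4035 UMIs and Ccl22 had 1724, 1351, 2402 and 1741. Ccl1 had 727, 273, 538 and 346 UMIs, Ccr4 had 105, 50, 105 and 25, and Ccr8 had 564, 205, 322 and 197. The low totals of Ccr4 set wide intervals on everything said of it.

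**Figure D1:**
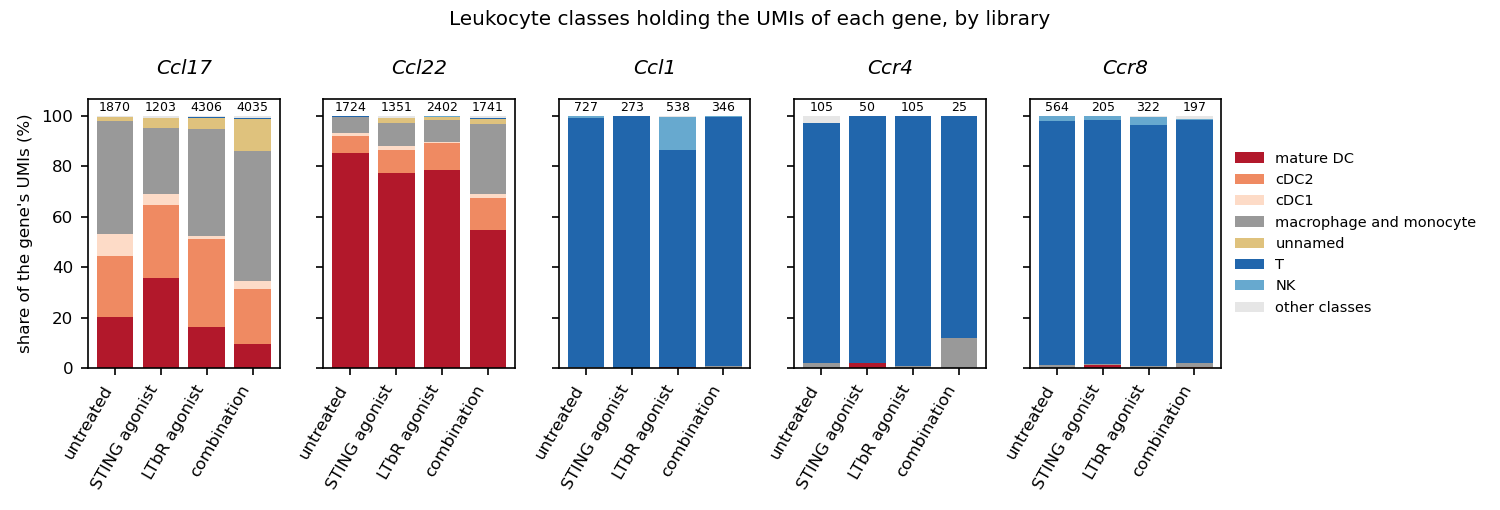
For each of the 5 genes and each of the 4 libraries, the stacked bar gives the percentage of the gene's UMIs held by each cell class, with the total UMIs above it. Ccl22 sits mostly in the mature DC class, Ccl17 is spread over mature DC, cDC2 and macrophages, and Ccl1, Ccr4 and Ccr8 sit almost wholly in the T class.

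As a level over all leukocytes, Ccl17 was 42.9 CPM in the untreated library, 18.0 with the STING agonist, 70.1 with the LTbR agonist and 90.2 with the combination. Against the untreated library this is a log2 ratio of −1.25 (interval −1.36 to −1.14), 0.71 (0.63 to 0.79) and 1.07 (0.99 to 1.15). Ccl22 was 39.6, 20.3, 39.1 and 38.9 CPM, so it was lower in the STING agonist library (log2 ratio −0.97) and within 0.02 log2 units of the untreated level in the other two libraries. The T cell genes were lower in each treated library. Ccl1 was 16.7, 4.10, 8.76 and 7.74 CPM, Ccr4 was 2.41, 0.750, 1.71 and 0.559 CPM, and Ccr8 was 12.9, 3.08, 5.24 and 4.40 CPM.

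These levels mix the makeup of each library with the level inside each class, and here fewer cells of a type and less RNA per cell cannot be told apart. The median gene was itself shifted against the untreated library, by −0.38 log2 units with the STING agonist, −0.07 with the LTbR agonist and −0.15 with the combination, and 16.2, 4.23 and 5.53% of all genes with at least 50 UMIs over the compared libraries lay past 2-fold. Neutrophils were 6.70, 40.0, 7.43 and 8.96% of leukocytes, T class cells 19.0, 4.54, 15.4 and 11.6%, and mature DC 2.42, 1.33, 1.46 and 1.34%. The levels inside each class follow.

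Ccl22 was a gene of mature DC. The mature DC class, 178, 176, 190 and 193 cells, held 85.5, 77.6, 78.4 and 54.8% of all Ccl22 UMIs. Over the 4 libraries together Ccl22 was at 1317 CPM (1282 to 1352) in this class, followed by cDC2 at 90.2 (83.7 to 97.1), the unnamed clusters at 27.1 (22.2 to 32.8), cDC1 at 24.9 (19.8 to 30.9) and the macrophage and monocyte class at 6.40 (6.00 to 6.83). Of these neighbors, the unnamed clusters and cDC1 had overlapping intervals. Neutrophils, taken here as a class that should lack Ccl22, were at 0.976 CPM (0.558 to 1.59).

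Within mature DC, Ccl22 had 1474, 1048, 1884 and 954 UMIs, which is 1298 CPM (1232 to 1366), 976 (918 to 1037), 1608 (1536 to 1682) and 1385 (1298 to 1476). The STING agonist library was lowest and the LTbR agonist library highest, and the combination library was between the untreated and LTbR agonist libraries. The log2 ratio to untreated was −0.41 (−0.53 to −0.30) for the STING agonist, 0.31 (0.21 to 0.41) for the LTbR agonist and 0.09 (−0.03 to 0.21) for the combination. None of the 3 was past 2-fold, a size that 6.18, 2.28 and 6.53% of genes passed in this class in the same 3 comparisons, where the median gene lay within 0.05 log2 units of 0.

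A Ccl22 UMI was found in 65.7, 54.5, 73.2 and 51.8% of mature DC, and in 53.1, 44.2, 66.5 and 53.4% once each cell was thinned to 2000 UMIs. In neutrophils the share was 0, 0.170, 0.103 and 0.465%, at median depths of 1832, 2111, 1621 and 1039 UMIs against 5787, 4475.5, 5574 and 2941 in mature DC. At equal depth the share in the combination library (44.5 to 62.2%) and in the untreated library (45.1 to 61.0%) differed by less than the counting error, and the LTbR agonist library stayed highest (58.6 to 73.7%).

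The molecules were held by few of these cells. The 12, 9, 17 and 13 richest cells held 50% or more of the Ccl22 UMIs of the class, and the 36, 24, 49 and 27 mature DC with at least 10 UMIs held 81.8, 78.3, 83.0 and 73.7% of them. The single richest cell, a mature DC in each library, held 248, 128, 222 and 84 Ccl22 UMIs. The plot of UMIs per cell shows this steep fall in every library.

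Outside mature DC the Ccl22 level was low but not the same in all libraries. In cDC2 (251, 205, 362 and 391 cells), dendritic cells that present antigen to CD4 T cells, Ccl22 had 115, 119, 262 and 218 UMIs, or 56.5, 66.3, 105 and 137 CPM. The LTbR agonist library (log2 ratio 0.90, 0.57 to 1.22) and the combination library (1.28, 0.95 to 1.62) were above the untreated one, and the STING agonist library was not separated from it (0.23, −0.15 to 0.61). Of all genes in cDC2, 2.59, 2.02 and 2.39% lay past 2-fold in the STING agonist, LTbR agonist and combination comparisons. The share of cDC2 with a Ccl22 UMI did not follow this order, at 13.5, 17.6, 15.2 and 12.3%, and when each class member had to carry its own markers the 3 log2 ratios became 1.13, 0.50 and 0.20.

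In the macrophage and monocyte class Ccl22 had 111, 121, 208 and 479 UMIs, or 3.79, 2.72, 5.25 and 15.9 CPM, with a UMI in 1.22, 1.09, 1.18 and 2.23% of 4249, 6219, 7707 and 8826 cells. The combination library stood above the other libraries, with a log2 ratio to untreated of 2.07 (1.77 to 2.38). Whether the STING agonist and LTbR agonist libraries lay above or below the untreated one changed under some alternatives given in the last section. The largest cluster of this class differed between libraries, cluster 3 in the untreated library (937 cells), cluster 1 in the STING agonist and LTbR agonist libraries (1482 and 1682 cells) and cluster 0 in the combination library (2670 cells). Within cluster 0, macrophages led by the complement genes C1qa, C1qb and C1qc and by Trem2, Ccl22 was 8.35, 9.42, 15.7 and 26.7 CPM, and the combination library was again highest (log2 ratio 1.67, 1.21 to 2.17). The part of Ccl22 UMIs held by the macrophage and monocyte class was 6.44, 8.96, 8.66 and 27.5%.

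Ccl17 had a wider set of sources. The macrophage and monocyte class held 44.8, 25.9, 42.6 and 52.0% of its UMIs, cDC2 held 24.4, 29.0, 35.1 and 22.1%, and mature DC held 20.2, 35.6, 16.1 and 9.34%. By level in CPM the order was different, since the macrophage class is large. Over the 4 libraries together Ccl17 was at 461 CPM (440 to 482) in mature DC, 405 (391 to 420) in cDC2, 200 (186 to 215) in the unnamed clusters, 116 (105 to 128) in cDC1 and 35.4 (34.4 to 36.4) in the macrophage and monocyte class, and these intervals did not overlap. Within the LTbR agonist and combination libraries, however, the intervals of mature DC and cDC2 overlapped, as the values below show. Neutrophils were at 0.732 CPM (0.378 to 1.28) and T cells at 1.71 (1.16 to 2.43).

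In mature DC, Ccl17 had 377, 428, 694 and 377 UMIs, or 332 CPM (299 to 367), 398 (362 to 438), 592 (549 to 638) and 547 (493 to 605). Both libraries that received the LTbR agonist were above the 2 that did not. The log2 ratio to untreated was 0.26 (0.06 to 0.47), 0.84 (0.65 to 1.02) and 0.72 (0.51 to 0.93), so neither of the latter was past 2-fold. A UMI was found in 26.4, 14.2, 33.7 and 23.3% of the cells, or 21.0, 14.7, 27.3 and 22.1% after thinning. The STING agonist library thus had the lowest share of positive cells while its CPM was above the untreated one, and 1 of its cells held 122 of the 428 UMIs (28.5%). When each cell had to carry its own class markers, the STING agonist ratio turned to −0.76 and that of the combination moved to 0.23.

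In cDC2, Ccl17 had 456, 349, 1512 and 890 UMIs, or 224 CPM (204 to 245), 194 (175 to 216), 606 (576 to 637) and 561 (525 to 599). The LTbR agonist and combination libraries were again the high ones, by a log2 ratio of 1.44 (1.28 to 1.59) and 1.32 (1.16 to 1.49), while the STING agonist library was at −0.20 (−0.41 to 0.00). Ccl17 was thus past 2-fold in both, where 2.02 and 2.39% of genes were. The share of cDC2 with a Ccl17 UMI was 18.3, 12.2, 26.0 and 25.8%, and 13, 8.20, 19.9 and 23.1% after thinning, with both libraries that received the LTbR agonist again above the others. The level without the cell with most UMIs was 160, 138, 502 and 500 CPM. With each cell required to carry its own markers the 2 ratios were lower, at 0.80 and 0.32.

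The 2 LTbR agonist comparisons with no library in common gave close values in cDC2. Without the STING agonist (LTbR agonist against untreated) the Ccl17 log2 ratio was 1.44, and with it (combination against STING agonist) it was 1.53 (1.35 to 1.71). For Ccl22 in cDC2 the pair was 0.90 and 1.05 (0.72 to 1.39). In mature DC the pairs were 0.84 and 0.46 (0.25 to 0.66) for Ccl17 and 0.31 and 0.51 (0.38 to 0.63) for Ccl22. The difference between the members of a pair has no replicate and was not tested.

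**Figure D2:**
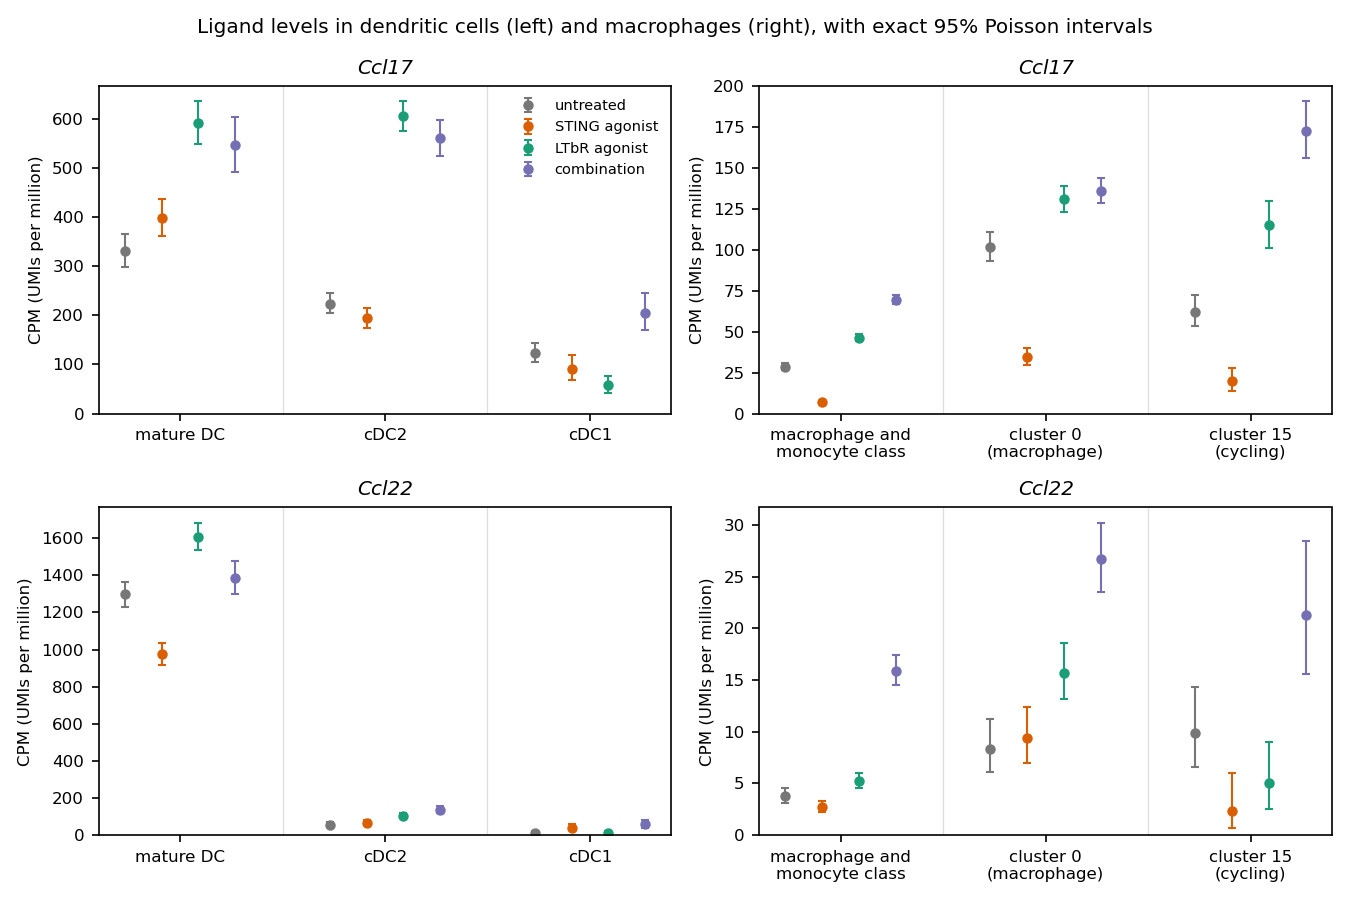
Ccl17 and Ccl22 in CPM on a linear axis, with the exact 95% counting interval, in dendritic cell classes and in the macrophage and monocyte class with its clusters 0 and 15, for the 4 libraries. Ccl17 in cDC2 stands at 606 and 561 CPM in the LTbR agonist and combination libraries against 224 and 194 in the others, and the STING agonist library is lowest in each macrophage set for Ccl17.

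In cDC1, dendritic cells that cross-present antigen to CD8 T cells, Ccl17 was 124, 91.4, 57.8 and 205 CPM. These rest on 161, 56, 46 and 119 UMIs, of which 1 cell held 52.8, 30.4, 28.3 and 41.2%, and no order of the libraries can be read from them.

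In the macrophage and monocyte class Ccl17 had 837, 312, 1835 and 2098 UMIs, or 28.6, 7.01, 46.3 and 69.7 CPM. The STING agonist library was lowest, by a log2 ratio of −2.03 (−2.22 to −1.84), and the LTbR agonist and combination libraries were above the untreated one by 0.70 (0.58 to 0.82) and 1.29 (1.17 to 1.40). The share of cells with a UMI followed the same order, 1.91, 0.917, 2.48 and 4.44%, and 1.28, 0.491, 1.83 and 4.09% after thinning, against 0.203, 0.0567, 0.103 and 0.543% in neutrophils and 0.286, 0.167, 0.448 and 1.02% in T cells. The combination library had the highest share in each of these classes. With the STING agonist in both libraries, the LTbR agonist comparison was 3.31 (3.14 to 3.49) in log2 units, against 0.70 without it. With each cell required to carry its own class markers, the 3 ratios to untreated were −1.04, 1.47 and 2.66.

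The makeup of the class moved with these levels. Cluster 0 was the largest cluster of the class over all libraries together, with 701, 747, 1637 and 2670 cells. It held Ccl17 at 102 CPM (93.5 to 111), 34.7 (29.9 to 40.1), 131 (123 to 139) and 136 (129 to 144). Inside this cluster the log2 ratios were −1.55 (−1.80 to −1.31), 0.36 (0.21 to 0.51) and 0.41 (0.27 to 0.56), so the lower level of the STING agonist library was also seen within it, and the higher level of the combination library was smaller there than in the whole class. In the cycling macrophage cluster 15 Ccl17 had 176, 34, 252 and 373 UMIs and log2 ratios of −1.64 (−2.22 to −1.10), 0.88 (0.60 to 1.17) and 1.47 (1.21 to 1.74), with 88.2% of the STING agonist and 63.1% of the LTbR agonist UMIs in 1 cell. Cluster 23, an unnamed cluster led by Retnla, Lyz1, Ear2, Lpl and Cd209a with 26, 13, 162 and 191 cells, held Ccl17 at 120, 379, 173 and 608 CPM, and in the STING agonist library 96.0% of it was in 1 cell.

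The cells of the macrophage and monocyte class with a Ccl17 UMI, 721 of 27001, differed from the others in dendritic cell genes. Of 6 cDC2 markers 4 were past 2-fold higher in them, with log2 ratios of 2.63 for H2-DMb2, 2.60 for the transcription factor Zbtb46, 2.28 for the lectin Mgl2 and 1.82 for Cd209a. Of the 8 measured mature DC markers 5 were higher, Ccr7 by 2.93, and of 8 cDC1 markers 3 were higher. Of 8 monocyte markers 5 were lower, F13a1 by −2.33, and of 10 macrophage markers 2 were lower, Adgre1 by −1.34 and Apoe by −1.04, while C1qa was at −0.16. Over all genes 4.23% were past 2-fold higher and 6.59% lower. The ratios pool the libraries, in which the positive cells numbered 81, 57, 191 and 392. These cells were also deeper, with a median of 6160 UMIs against 4130. The part of library, depth or dendritic cells inside the class in these ratios was not tested.

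The 408 cells of the same class with a Ccl22 UMI showed the same direction. Of the 8 measured mature DC markers 6 were past 2-fold higher, with Ccr7 at 4.14 and Apol7c at 3.27, and of 6 cDC2 markers 4 were, with Cd209a at 3.32. Of 8 monocyte markers 5 were lower, with Chil3 at −2.41, and none of 10 macrophage markers was past 2-fold. The shares over all genes were 5.42% higher and 7.08% lower, and the median depth was 6041.5 UMIs against 4155.

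Ccl17 and Ccl22 overlapped in the same cells to a different degree in each class. In mature DC, 169 of the 181 cells with Ccl17 also had Ccl22 (93.4%), and 37.4% of the 452 cells with Ccl22 had Ccl17. By library the first share was 95.7, 100, 96.9 and 82.2%. In cDC2, 98 of 266 cells with Ccl17 had Ccl22 (36.8%), or 56.6% of the 173 with Ccl22, and in the macrophage and monocyte class it was 148 of 721 (20.5%), or 36.3% of 408. Ccl22 was found in 61.3% of all mature DC, 14.3% of all cDC2 and 1.51% of the whole macrophage and monocyte class. The overlap shares of the 3 classes fall in the same order as these. Mature DC with Ccl17 were largely a subset of those with Ccl22, in a class where most cells had Ccl22. In all 3 classes the cells with both were deeper than the class, with a median of 7483 UMIs against 4456 in mature DC.

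**Figure D3:**
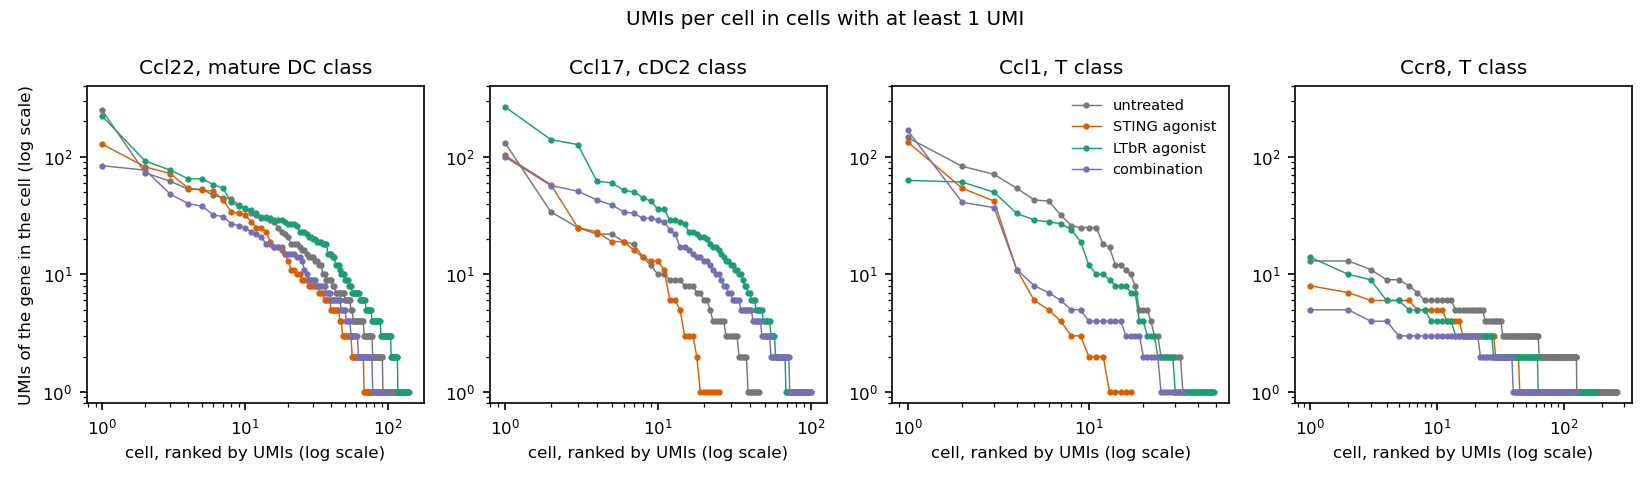
UMIs per cell against the rank of the cell, both on log axes, for Ccl22 in mature DC, Ccl17 in cDC2, and Ccl1 and Ccr8 in T cells, 1 line per library. The richest cell held 84 to 248 UMIs of Ccl22, 100 to 266 of Ccl17 and 63 to 168 of Ccl1, whereas the richest T cell for Ccr8 in any library held 14.

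Ccl1 came from T cells. The T class held 98.6, 100, 85.9 and 99.1% of its UMIs, and in the LTbR agonist library 70 of the remaining UMIs lay in 1 cell of the natural killer (NK) class. No Ccl1 UMI was found in 8038 neutrophils or 1209 cDC2, and 7 were found in 27001 macrophages and monocytes. Over the 4 libraries together Ccl1 was at 99.2 CPM (94.7 to 104) in T cells and 11.9 (9.43 to 14.9) in NK cells.

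In the T class, 1401, 600, 2008 and 1668 cells, Ccl1 had 717, 273, 462 and 343 UMIs, or 127 CPM (118 to 137), 110 (97.3 to 124), 69.7 (63.5 to 76.4) and 102 (91.8 to 114). The LTbR agonist library was lowest, by a log2 ratio of −0.87 (−1.04 to −0.70) against −0.21 (−0.42 to −0.01) for the STING agonist and −0.31 (−0.50 to −0.13) for the combination. None was past 2-fold, where 3.84, 3.0 and 2.60% of genes of the T class were in the 3 comparisons. The level rested on few cells, since 48, 17, 49 and 33 T cells had a UMI (3.43, 2.83, 2.44 and 1.98%) and 1 cell held 20.4, 49.1, 13.6 and 49.0% of the UMIs. Without that cell the ratios of the STING agonist and combination libraries were −0.86 and −0.96, so the order of the 3 treated libraries changed with single cells.

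Ccl1 UMIs lay in both CD8 and CD4 T cells, and none in T cells with Foxp3. T cells were called from their own UMIs, as Foxp3+ (Foxp3 is the factor that defines regulatory T cells), as CD4 without Foxp3, or as CD8, so that a Foxp3+ cell whose Foxp3 was missed falls into another set. None of the 383 Foxp3+ T cells had a Ccl1 UMI, which allows up to 0.783% of such cells with a UMI and sets no limit on cells that express Ccl1 below detection. CD4 Foxp3- T cells had 341, 20, 213 and 186 Ccl1 UMIs, or 604, 66.7, 216 and 526 CPM, and in the combination library 90.3% of them were in 1 cell. CD8 T cells had 337, 253, 173 and 111 UMIs, or 119, 232, 64.7 and 67.1 CPM, and 1 cell held 43.3, 53.0, 19.1 and 36.9% of them. In the STING agonist library the CD4 level was thus the lowest of the 4 (log2 ratio −3.18, −3.91 to −2.53) and the CD8 level the highest (0.96, 0.72 to 1.20), with 55.0 and 53.0% of the 2 counts in a single cell each.

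Among clusters of T cells, made without the 5 genes, Ccl1 was highest in T cluster 8 in each library but the STING agonist one. T cluster 8 was an unnamed cluster of 56, 24, 89 and 81 cells led by Hs6st3, Dthd1 and Il21, the last a cytokine of helper T cells. There Ccl1 had 225, 2, 245 and 228 UMIs, or 1142, 26.5, 773 and 1203 CPM. The STING agonist library had 2 UMIs in these 24 cells, while 246 of its Ccl1 UMIs lay in T cluster 0, named CD8 effector. In the combination library 1 cell held 168 of the 228 UMIs of T cluster 8 (73.7%). Without the richest cell of each library the levels were 745, 14.2, 582 and 330 CPM. T cluster 14, a small set of 28, 6, 71 and 29 cells with type 2 genes, held Ccl1 at 840, 726, 10.7 and 0 CPM, of which 1 cell held 97.3% in the untreated and 61.1% in the STING agonist library.

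The 147 T cells with a Ccl1 UMI had 6 of 8 naive or memory genes and all 6 measured gamma-delta or IL-17 genes past 2-fold lower than other T cells. In the other lists 4 of 7 CD4 helper genes were higher and 1 lower, 2 of 10 CD8 effector genes higher and 1 lower, 1 of 6 measured type 2 genes higher, 1 of 8 regulatory genes higher and 2 lower, and 2 of 6 cycling genes higher. The cytokine Ifng was at a log2 ratio of 2.76 against T cells without Ccl1, Il13 at 3.88, the cytotoxic protease Gzmb at 1.44, the transcription factor Bhlhe40 at 1.40 and the inhibitory receptor Lag3 at 1.23. The factor Tcf7 was at −3.56, the chemokine receptor Cxcr3 at −2.57 and Gzmk at −2.28. Over all genes 5.12% were past 2-fold higher and 11.7% lower, and the median depth was 4073 UMIs in cells with Ccl1 and 2632 in those without.

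Ccr4 was the scarcest of the 5 genes. The T class held 100, 49, 104 and 22 of its UMIs, or 17.8 CPM (14.5 to 21.6), 19.7 (14.6 to 26.1), 15.7 (12.8 to 19.0) and 6.57 (4.12 to 9.94). The combination library was below the other 3, with a log2 ratio to untreated of −1.44 (−2.17 to −0.76), while the STING agonist (0.15, −0.37 to 0.66) and LTbR agonist (−0.18, −0.59 to 0.23) libraries were not separated from it. Ccr4 was thus past 2-fold in the combination, where 2.60% of genes were. A UMI was found in 5.07, 4.33, 3.64 and 1.20% of T cells and, at equal depth, in 3.63, 2.75, 2.66 and 0.923%, against 0.0471, 0, 0.0130 and 0.0340% of macrophages and monocytes. Of the 71, 26, 73 and 20 positive cells, 50, 16, 48 and 18 had 1 UMI.

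The Ccr4 level differed by T cell subset. It was 76.1, 80.0, 56.9 and 28.3 CPM in CD4 Foxp3- T cells, on 43, 24, 56 and 10 UMIs, and the combination library was lowest there too (log2 ratio −1.43, −2.59 to −0.41). In Foxp3+ T cells it was 31.4, 13.4, 52.0 and 45.0 CPM on 20, 3, 20 and 5 UMIs. No treated library was separated from the untreated one at this depth, and the LTbR agonist and STING agonist libraries were not compared with each other. CD8 T cells had 5, 1, 3 and 0 UMIs in 520, 213, 648 and 675 cells. Of the 275 Ccr4 UMIs of the T class, 144 lay in T cluster 6, an unnamed cluster of 80, 36, 141 and 36 cells led by Il17f, Il17re, Il17a and Ccr6, genes of IL-17-producing T cells. In this cluster Ccr4 was 233, 268, 140 and 131 CPM on 49, 37, 50 and 8 UMIs. The log2 ratio to untreated there was 0.20 (−0.45 to 0.85) for the STING agonist, −0.73 (−1.33 to −0.14) for the LTbR agonist and −0.83 (−2.12 to 0.26) for the combination.

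In the 190 T cells with a Ccr4 UMI, 5 of the 6 measured genes of the gamma-delta or IL-17 list were past 2-fold higher, as were 4 of 7 CD4 helper genes (1 lower), 4 of 6 measured type 2 genes (1 lower), 3 of 8 regulatory genes and 2 of 8 naive or memory genes (1 lower). Il17a was at a log2 ratio of 2.99, Cd40lg at 2.44, Foxp3 at 1.84, Cd4 at 1.83 and Il1rl1, the receptor of IL-33, at 1.65. Of 10 CD8 effector genes 9 were lower, among them Prf1 at −5.97, Cd8a at −4.11 and Nkg7 at −3.06, and all 6 cycling genes were lower, while Ifng was at −2.13. Over all genes 4.75% were past 2-fold higher and 11.4% lower, and the median depths were 3191 and 2644 UMIs.

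Ccr8 was found in more T cells than Ccr4. In the T class it had 547, 199, 308 and 190 UMIs, or 97.2 CPM (89.2 to 106), 80.1 (69.4 to 92.1), 46.5 (41.4 to 52.0) and 56.7 (48.9 to 65.4). The untreated library was highest and the libraries that received the LTbR agonist were lowest. The log2 ratio to untreated was −0.28 (−0.52 to −0.04) for the STING agonist, −1.06 (−1.27 to −0.86) for the LTbR agonist and −0.78 (−1.02 to −0.54) for the combination. The LTbR agonist value was past 2-fold, where 3.0% of genes were. A UMI was found in 18.7, 15.3, 8.86 and 7.43% of T cells, and in 13.4, 12.5, 6.62 and 8.46% after thinning, against 0.0941, 0.0161, 0.0389 and 0.0340% of macrophages and monocytes and none of 8038 neutrophils, which were shallower than T cells (a count of 0 allows up to 0.0373% of cells with a UMI). The condition and the library cannot be told apart here, as each condition is 1 pool of tumors.

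Foxp3+ T cells had the highest Ccr8 level among the subsets, 303 CPM (262 to 349), 245 (184 to 319), 182 (142 to 230) and 135 (75.6 to 223), on 193, 55, 70 and 15 UMIs, although in the STING agonist and combination libraries the interval overlapped that of CD4 Foxp3- T cells. The LTbR agonist and combination libraries were below the untreated one by log2 ratios of −0.73 (−1.15 to −0.33) and −1.16 (−2.03 to −0.41), and the STING agonist library was not separated from it (−0.31, −0.77 to 0.13). With regulatory T cells taken as a cluster instead, the LTbR agonist ratio was −1.30. A Ccr8 UMI was found in 38.9, 44.0, 27.2 and 17.3% of these cells. After thinning it was 29.3, 35.7, 26.5 and 16.7%, the last over 18 cells. The cells themselves were fewer. There were 167, 50, 114 and 52 Foxp3+ T cells, or 2.27, 0.378, 0.875 and 0.361% of leukocytes, a count that depends on depth because a cell is called by a Foxp3 UMI. Foxp3+ T cells held 35.3, 27.6, 22.7 and 7.89% of the Ccr8 UMIs of T cells.

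Ccr8 was not limited to Foxp3+ T cells. In CD4 Foxp3- T cells it was 172, 213, 110 and 119 CPM, lower than untreated in the LTbR agonist library (log2 ratio −0.65, −1.06 to −0.24), with intervals reaching 0 in the STING agonist (0.31, −0.17 to 0.78) and combination libraries (−0.53, −1.09 to 0.01). In CD8 T cells it was 62.7, 40.3, 29.9 and 49.6 CPM, lower in the STING agonist (−0.64, −1.15 to −0.16) and LTbR agonist libraries (−1.07, −1.47 to −0.68), and the combination interval reached 0 (−0.34, −0.73 to 0.05). With CD8 T cells taken as a cluster the STING agonist ratio turned to 0.07. CD8 T cells held 32.5, 22.1, 26.0 and 43.2% of the Ccr8 UMIs of T cells. Their share in the combination library was thus above that of the Foxp3+ T cells, which held 15 of 190 UMIs.

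By T cluster, Ccr8 was 351, 246, 143 and 168 CPM in the regulatory T cluster 4, 294, 424, 230 and 195 in T cluster 8, which over all libraries together also held the most Ccl1 UMIs, and 115, 565, 155 and 415 in T cluster 14. The untreated library was highest in the regulatory cluster. It was not in T clusters 8 and 14, where the STING agonist values rest on 24 and 6 cells.

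**Figure D4:**
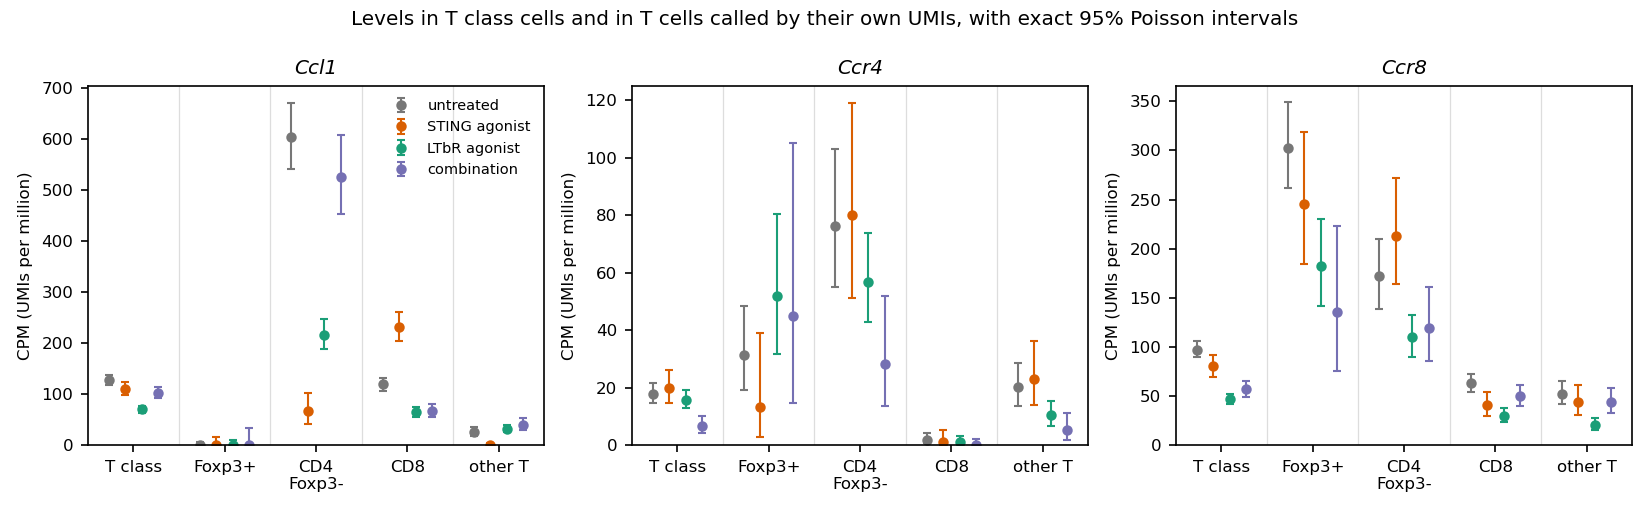
Ccl1, Ccr4 and Ccr8 in CPM on a linear axis, with the exact 95% counting interval, in the T class and its subsets for the 4 libraries. Ccr8 in Foxp3+ T cells goes from 303 CPM in the untreated library to 135 in the combination library, and Ccr4 in the T class is lowest in the combination library at 6.57 CPM.

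The 656 T cells with a Ccr8 UMI carried regulatory and type 2 genes. Of 8 regulatory genes 7 were past 2-fold higher, with the costimulatory receptor Tnfrsf4 at a log2 ratio of 2.11, Foxp3 at 1.94 and the IL-2 receptor chain Il2ra at 1.66, and Ikzf2 was at 0.53. Of 6 measured type 2 genes 4 were higher, with Il13 at 5.86, Il5 at 5.49, Il1rl1 at 1.96 and Areg at 1.89, although the cytokines Il5 and Il13 were seen in 1.52 and 2.44% of the cells. Of 8 naive or memory genes 5 were lower, with Tcf7 at −2.52 and S1pr1 at −2.23, and of 6 gamma-delta or IL-17 genes 5 were lower, with Trdc at −3.50. None of 10 CD8 effector genes was past 2-fold. Over all genes 2.56% were higher and 5.50% lower, and the median depths were 3628.5 and 2533 UMIs.

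**Figure D5:**
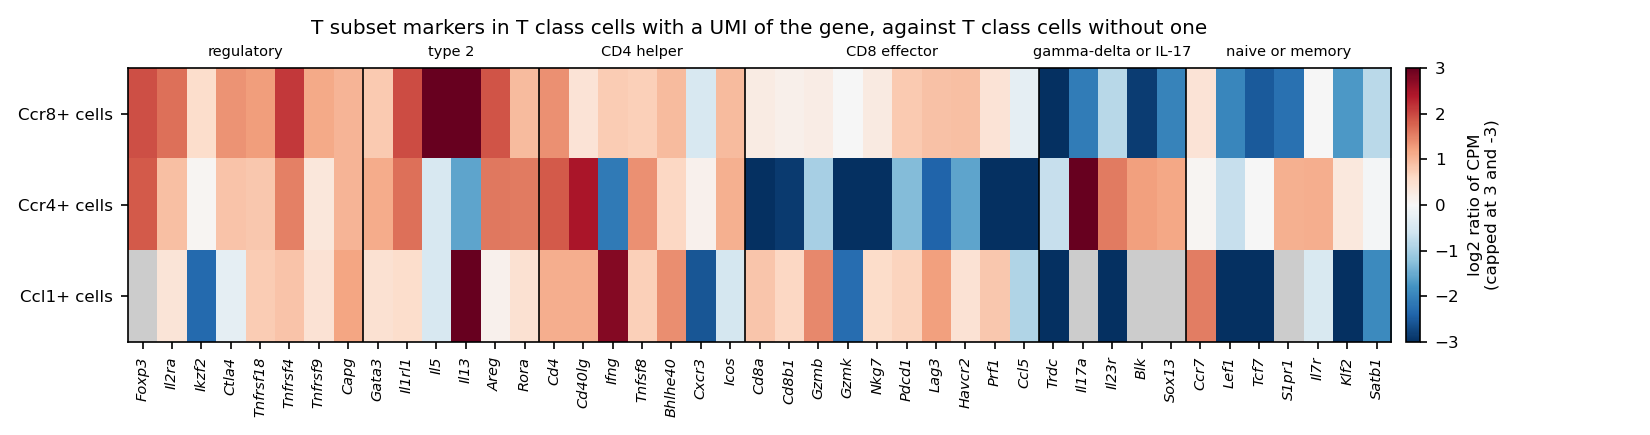
Log2 ratio of each T cell subset gene in T cells with a UMI of Ccr8, Ccr4 or Ccl1 against T cells without, colored from −3 to 3, with grey for genes at 0 UMIs and a few list members not drawn. Regulatory genes are higher in cells with Ccr8 (Foxp3 1.94), IL-17 genes in cells with Ccr4 (Il17a 2.99) and Ifng in cells with Ccl1 (2.76).

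Over the 4 libraries together 11.6% of T cells had a Ccr8 UMI. Of 190 T cells with Ccr4, 35 had Ccr8 (18.4%), or 5.34% of the 656 with Ccr8, although in the untreated library it was 18.3% against 18.7% of its T cells. Of 147 T cells with Ccl1, 51 had Ccr8 (34.7%), or 7.77% of those with Ccr8. In CD4 Foxp3- T cells it was 48.9% of the 45 cells with Ccl1 against 20.7% of the subset, and in CD8 T cells 28.2% of 85 against 11.3%. The cells with both were deeper, with a median of 4239 UMIs for Ccr4 and Ccr8 and 5247 for Ccl1 and Ccr8 against 2659 in the T class, and the part of depth was not tested. Ccl1 and Ccr4 shared 8 cells. With a median of 1 UMI per positive cell for each receptor, cells counted as without it include cells in which it was missed.

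The 2 LTbR agonist comparisons with no common library were also set side by side in the T class. Ccr8 was at −1.06 without the STING agonist and −0.50 (−0.79 to −0.20) with it, both lower. Ccr4 was at −0.18 and −1.59 (−2.38 to −0.83), and Ccl1 at −0.87 and −0.10 (−0.34 to 0.13). For Ccr4 and Ccl1 1 interval of each pair held 0.

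Genes that act on these ligands and receptors mostly lay within 2-fold of untreated. The list for dendritic cells had 17 genes, among them the signal chain of IL-4 (Il4ra, Stat6) and the GM-CSF receptor chains. It also held the LTbR gene itself (Ltbr) and the noncanonical NF-kB genes that act after the receptor (Relb, Nfkb2, Map3k14, Traf3). In mature DC, 13, 14 and 12 of the 17 genes were measured in the STING agonist, LTbR agonist and combination comparisons. Of these, 1 was past 2-fold in each comparison, where 6.18, 2.28 and 6.53% of all genes were. These were Klf4, a transcription factor of myeloid cells, with log2 ratios of 2.31 and 2.11 on 58 and 55 UMIs against 12, and in the combination Crlf2, the receptor of TSLP, with 1.02 (0.29 to 1.77). Klf4 was as high in the combination (2.31, 1.37 to 3.42), on 37 UMIs against 12, a total just under the minimum for the count. The lower end of the range was Batf3, at −0.76 with the STING agonist. The medians of the list were 0.13, 0.09 and −0.01, beside −0.05, −0.01 and −0.03 for all genes.

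In cDC2, 15 of the 17 were measured in each comparison. Of these, 1 was past 2-fold in each, where 2.59, 2.02 and 2.39% of all genes were. Ccl8, in mice another ligand of CCR8, was lower in the STING agonist library (−2.93, 5 UMIs against 47) and in the combination library (−1.35, 14 against 47). In mature DC, where it had 6 UMIs in the untreated library and was under the minimum in each comparison, its ratio pointed the other way, 3.29 (2.13 to 4.92) on 38 UMIs in the combination library and 1.42 (0.07 to 3.14) on 16 in the STING agonist library. Klf4 was higher in the LTbR agonist library (1.23, 1.02 to 1.44), on 747 UMIs against 260. The other genes of the list, with the noncanonical NF-kB genes among them, stayed within 2-fold, and the medians were 0.25, 0.13 and 0.06, beside −0.06, 0.01 and −0.01 for all genes.

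In the T class, 15 genes of regulatory and type 2 T cells were measured. None was past 2-fold in the STING agonist library. Of all T class genes, 3.84, 3.0 and 2.60% were past 2-fold in the STING agonist, LTbR agonist and combination comparisons. Foxp3 was lower in the LTbR agonist (−1.17, −1.36 to −0.98) and combination libraries (−1.76, −2.06 to −1.48), and in the combination library Tnfrsf4 was lower (−1.12) while Bach2 (1.15) and Satb1 (1.07), factors of resting T cells, were higher. The medians of the list were −0.24, −0.40 and −0.64, beside −0.07, −0.00 and −0.05 for all genes. Of 6 genes of receptor signaling, the G protein subunits and their regulators, none was past 2-fold in any of the 3 comparisons, and Rgs16 lay at the lower end with −0.66, −0.48 and −0.44. The largest leukocyte cluster of the T class was cluster 16 in the untreated library (374 cells) and cluster 8 in the others (180, 818 and 722 cells).

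Across 39 sums of 1 class in 1 library, the genes whose level was most like that of each member were found among 13189 genes by the Pearson correlation of log2(CPM + 1), given here as a description, since the sums share libraries and depth. For Ccl22 they were Arhgap28 (0.939), Arhgef40 (0.932), Procr (0.925), Nostrin (0.914) and Rogdi (0.905). For Ccl17 they included Mpc1 (0.903), Nectin1 (0.902), Cst3 (0.898) and P2rx5 (0.897), and Ccl22 itself was at 0.858. Ccl1 was most like Gzmk (0.956), Trbv1 (0.951), Ccr8 (0.948), Trbv12-2 (0.940) and Crmp1 (0.938). Ccr8 was most like Calca (0.971), Trbv1 (0.966), Trbv12-2 (0.965), Ccl1 (0.948) and Gzmk (0.940). Ccr4 was most like Trbv3 (0.948), Izumo1r (0.946), Trav14d-3-dv8 (0.943), Trbv12-2 (0.939) and Trbv19 (0.927), so the lists of the T cell members were made in part of T cell receptor segments that every T class sum holds. Gzmk was like Ccl1 across these sums and yet lower in T cells with a Ccl1 UMI (−2.28), as the first compares classes and the second single cells.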

How the data were processed

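Live CD45+ cells of pooled KPC tumors, 1 library per group, were profiled by 10x 5′ single-cell RNA-seq. The authors deposited UMI counts per gene and cell. The matrix headers name Cell Ranger 8.0.1, whereas the submitters' notes name Cell Ranger 7.1.0 and mm10. The sources also differ on the kit version.

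Cells with 300 to 5000 genes and at most 6% mitochondrial UMIs were kept. Scrublet called 1, 0, 1 and 2 doublets in the untreated, STING agonist, LTbR agonist and combination libraries, so instead the 305, 949, 857 and 1066 cells with the highest scores were removed (0.4% per 1000 cells). The rest were clustered with scanpy 1.11.5 (2000 variable genes without the 5 members, 30 components, 20 neighbors, Leiden resolution 1) into 33 clusters, named by at least 3 markers. The naming thresholds were set after seeing the clusters. The 5 members and all gene lists were chosen with earlier results of these data known.

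UMIs were summed per class and library and given as CPM with exact Poisson intervals, shares with Clopper-Pearson intervals, ratios with exact binomial intervals, and 0 counts with a floor of 3 counts (Python 3.11.15, scipy 1.17.1). Log2 ratios of the 5 members, and of marker genes in cells with and without a UMI, used no pseudocount. A pseudocount of 0.5 UMI entered the ratios of the related genes and the counts of genes past 2-fold. Genes counted past 2-fold had at least 50 UMIs over both libraries. The scripts were tested on simulated data. The named genes are the 5 members, the related genes past 2-fold or at the ends of the range, and the 5 genes most like each member. A few genes of these lists are not reported here. The genes named in cells with and without a UMI were chosen from the marker lists after their values were seen. Their ratios pool the libraries. The comparison over all genes in cDC2 was added to those planned. Promoter sequences came from RefSeq (GRCm38.p6). Alternatives changed the depth, filters, doublet removal, scaling, clustering and naming.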

Additional observations from a re-analysis of the deposited data

How the results depend on the processing

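All values are log2 ratios to untreated, and their movement has no replicate to be judged by. The cause was not tested for any of them. Of the recomputed values, 200 stayed within the error of the reported value, 68 lay outside it and 6 changed sign from a value whose interval had excluded 0 (marked below). Other sign changes started from values whose interval held 0. When each cell had to carry its own class markers, Ccl17 in mature DC was −0.76 (changed sign), 0.62 and 0.23 in the STING agonist, LTbR agonist and combination libraries, Ccl22 in mature DC −0.59, 0.18 and −0.23, Ccl22 in cDC2 1.13, 0.50 and 0.20, Ccl17 in cDC2 0.80 with the LTbR agonist and 0.32 with the combination, and Ccl22 in the macrophage and monocyte class 0.27 with the STING agonist (changed sign). With the 5 members among the variable genes, Ccl17 in mature DC was −0.15 (changed sign) with the STING agonist and 0.38 with the combination, Ccl17 in cDC2 1.19 with the LTbR agonist, and Ccl22 in the macrophage and monocyte class 0.15 with the STING agonist (changed sign). With each cell thinned to 2000 UMIs, Ccl17 in mature DC was 0.03 with the STING agonist, Ccl22 in mature DC 0.31 with the combination, Ccl17 in cDC2 −0.42 and 1.26 with the STING and LTbR agonists, Ccl22 in cDC2 0.42 and in the macrophage and monocyte class −0.36 (changed sign) with the LTbR agonist, and Ccl1 in T cells −0.45 and −0.91 with the LTbR agonist and the combination. Over all leukocytes thinning gave Ccl17 1.39 with the combination, Ccl22 −1.23 and −0.29 with the STING and LTbR agonists, Ccl1 −0.58 and −2.06 with the LTbR agonist and the combination, and Ccr4 −2.91 and Ccr8 −2.13 with the combination. With doublet scores ignored, the LTbR agonist values of Ccl17 were 1.03 in mature DC and 0.98 in cDC2. Without the cell with most UMIs, Ccl22 in mature DC was 0.21 with the combination, Ccl17 in cDC2 1.65 and 1.64 with the LTbR agonist and the combination, Ccl1 in T cells −0.86 and over all leukocytes −2.68 with the STING agonist, −0.96 and −1.74 with the combination, and Ccl22 over all leukocytes 0.13 with the combination. With median-of-ratios scaling over all leukocytes, Ccl17 was −0.89 and 1.23, Ccl22 −0.60 and 0.13 with the STING agonist and the combination, and Ccl1 −1.66 and Ccr8 −1.71 with the STING agonist. Over all deposited cells Ccl22 was 0.25 and 0.19 with the LTbR agonist and the combination, Ccl1 −1.80, −0.56 and −0.74 in the 3 comparisons, and Ccr8 −1.08 and −1.18 with the LTbR agonist and the combination. With T cells named by cluster, Ccr8 in regulatory T cells was −1.30 with the LTbR agonist and in CD8 T cells 0.07 (changed sign) with the STING agonist and 0.21 with the combination. With no minimum of UMIs, genes past 2-fold numbered 6786, 5540 and 5768 over all leukocytes, 4806, 4226 and 3990 in mature DC, 4289, 4206 and 4257 in cDC2 and 4203, 4828 and 3725 in T cells, against 2345, 615 and 785, 339, 127 and 331, 187, 157 and 173, and 375, 316 and 260. No paired analysis was possible because each group has 1 library.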
